A study of Mus musculus with 8 samples.

Results

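The vascular endothelial growth factor (VEGF) genes of the mouse lung were 5 ligands (Vegfa, Vegfb, Vegfc, Vegfd and Pgf), 3 tyrosine kinase receptors (Kdr, Flt1 and Flt4) and 2 co-receptors (Nrp1 and Nrp2). They were taken by symbol, and all 10 were among the 15960 symbols listed in the count table and among the 13517 genes that passed the filter on low counts. The mice called BHLKO were C57BL/6 mice with the Alb-Cre+ driver that were also Hif1_alpha fl/fl and Bmal1fl/fl, and the controls were C57BL/6 mice with Alb-Cre alone. Both groups thus carried the albumin-driven Cre recombinase, which acts in hepatocytes, so that the clock activator BMAL1 (listed as Arntl) and the oxygen-regulated factor HIF1A are targeted in the liver and the lung lies outside the targeted organ. Mice of both groups were 3 to 5 months old, had been kept for 2 weeks in 12 h of light and 12 h of dark, and were sampled at circadian time 16 after the lights had stayed off. Whole lung was sequenced in 4 BHLKO libraries (replicates 2, 3, 4 and 5) and 4 Alb-Cre libraries (replicates 1, 2, 4 and 5). The sex of the mice is not stated in the labels.

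VEGF ligands are secreted dimers that act on receptors of the endothelium. VEGFA drives growth and permeability of blood vessels through KDR (VEGFR2), and in the adult lung much of it comes from the alveolar epithelium. FLT1 (VEGFR1) binds VEGFA tightly but signals weakly, and it is also the receptor of VEGFB and of PGF, the placental growth factor. VEGFC and VEGFD are cut by proteases and act on FLT4 (VEGFR3), which is best known from lymphatic vessels, while the neuropilins NRP1 and NRP2 bind both VEGF ligands and class 3 semaphorins. Vegfa is a textbook target of hypoxia-inducible factors, and hepatopulmonary syndrome, the condition named in the title of the series, is a disorder of widened lung vessels in liver disease.

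Total counts were between 6838427 and 15430372 per library, and each of the 10 genes had at least 114 counts in every library. Levels are given as CPM, read counts set relative to library sizes after edgeR's TMM scaling, and fold changes are BHLKO over Alb-Cre on the log2 scale with their SE. A gene was called at an edgeR quasi-likelihood adjusted p under 0.05 over all tested genes. Alb-Cre replicate 5 lay apart on the first principal component (−6.46, with 14.64 to 29.98 in BHLKO and −32.34 to −26.25 in Alb-Cre replicates 1, 2 and 4). Alb-Cre replicate 2, the library with the fewest counts, lay apart on the second (−35.87, with −13.30 to 22.42 in all others). Neither targeted gene passed the test in lung: Arntl averaged 7.6 ± 2.5 CPM in BHLKO and 6.54 ± 1.37 CPM in Alb-Cre (adjusted p = 0.726), and Hif1a 13.5 ± 1.38 and 12.8 ± 1.95 CPM (adjusted p = 0.853; SD, n = 4 each). The labels do not say that each library came from a separate animal, so the p-values rest on the spread among libraries, which may be technical. In bulk tissue, fewer cells of a type and less RNA per cell cannot be told apart.

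Of the 10 VEGF genes, 1 rose in BHLKO lung, 0 fell and 9 did not pass the test. The gene that rose was Vegfd. Among all tested genes 2.26% were called, 1.04% as higher in BHLKO and 1.23% as lower, and a single call does not set the 10 genes apart from that background. Unadjusted p was under 0.05 for 3 of the 10 (Vegfd, Flt1 and Nrp2), against 16.1% of all tested genes. The median log2 fold change of the 10 genes was 0.05, and that of all tested genes was −0.002.

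**Figure D1:**
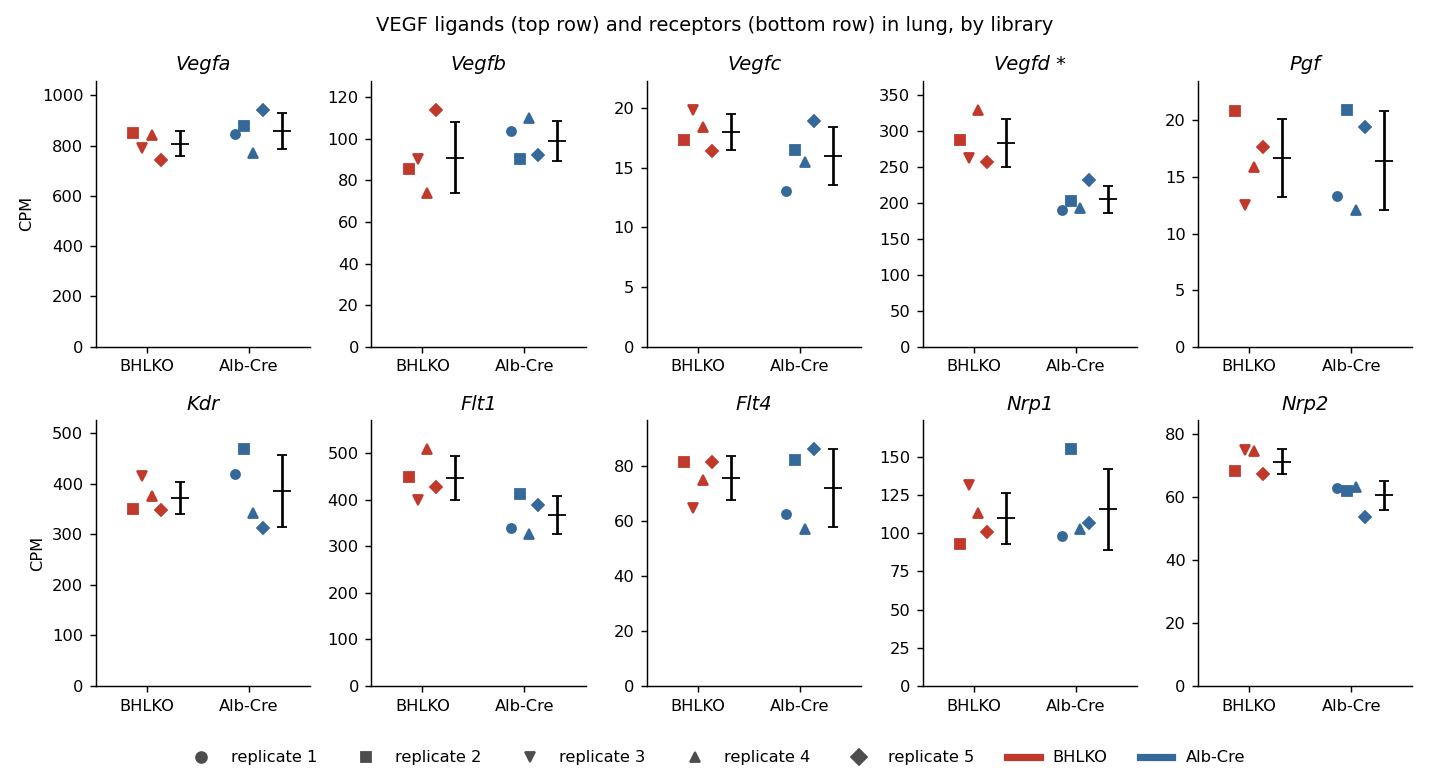
CPM of the 10 VEGF genes in each lung library, BHLKO left and Alb-Cre right in each panel; symbols give the replicate number, black bars the mean ± SD of 4 libraries, and the asterisk an edgeR adjusted p under 0.05. Vegfd was above every Alb-Cre library in all 4 BHLKO libraries, and Nrp2 likewise without passing the test, while the groups overlapped in the other 8 genes.

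Vegfd, first described as a growth factor induced by FOS, was at 287, 262, 329 and 256 CPM in BHLKO replicates 2, 3, 4 and 5, against 190.4, 203, 193 and 232 CPM in Alb-Cre replicates 1, 2, 4 and 5. The lowest BHLKO library was above the highest Alb-Cre library, which was replicate 5. It averaged 283 ± 33.3 CPM in BHLKO and 205 ± 19.2 CPM in Alb-Cre (SD, n = 4 each), a 1.39-fold difference (log2 0.47 ± 0.10, 95% interval 0.26 to 0.69; edgeR adjusted p = 0.022). By p it ranked 170 of the tested genes. Without Alb-Cre replicate 5, which lay apart on the first component and had the highest Alb-Cre level of Vegfd, its adjusted p was 0.0078. The call was lost on leaving out any of 5 libraries, BHLKO replicate 2 (adjusted p = 0.0655) or 4 (0.0707) or Alb-Cre replicate 1 (0.0865), 2 (0.0609) or 4 (0.0763). Vegfd lies on chromosome X (mm10, 164373378 to 164402650, GENCODE release M21). The Y-linked genes Ddx3y, Eif2s3y, Kdm5d and Uty had at least 17, 97, 47 and 11 counts in every library.

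The start of Vegfd is shown with those of the receptors Kdr and Flt1, because Vegfd was the gene that rose and these are the main blood vessel receptors of the family. Each sequence is read 5′ to 3′ from RefSeq (GRCm38.p6), begins 250 bases before the RefSeq start, and ends there or at the last base before the first GENCODE exon. Capitals mark the core of the hypoxia response element (ACGTG or GCGTG on either strand).
Vegfd, chrX:164373272-164373377, plus strand: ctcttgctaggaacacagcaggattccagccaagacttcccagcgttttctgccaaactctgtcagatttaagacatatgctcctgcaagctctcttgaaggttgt
Kdr, chr5:75978459-75978705, minus strand: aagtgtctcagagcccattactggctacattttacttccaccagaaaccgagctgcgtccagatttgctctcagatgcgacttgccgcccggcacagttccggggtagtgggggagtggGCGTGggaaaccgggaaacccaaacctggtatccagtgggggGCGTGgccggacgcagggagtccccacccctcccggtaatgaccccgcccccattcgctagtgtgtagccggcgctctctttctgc
Flt1, chr5:147726012-147726261, minus strand: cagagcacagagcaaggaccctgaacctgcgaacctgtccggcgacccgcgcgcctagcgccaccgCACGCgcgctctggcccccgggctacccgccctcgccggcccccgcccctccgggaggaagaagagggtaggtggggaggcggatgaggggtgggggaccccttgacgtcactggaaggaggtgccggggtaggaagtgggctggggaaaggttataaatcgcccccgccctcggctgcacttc
In the full 250 bases, Kdr holds the core 2 times, beginning 131 and 89 bases before the start, and Flt1 1 time, 184 bases before it. The Vegfd window holds none. Of the 12 RefSeq windows of the 10 genes, 7 hold the core, against 38.6% of all 32851 windows of that length. The matching windows of Vegfa, Pgf and Nrp1 lie within the span of the gene in GENCODE. The other Vegfa window, which lies before that span, holds none. The E-box CACGTG, which overlaps the core ACGTG, and the AP-1 letters TGANTCA were in 0 of the 12 windows, against 6.02% and 6.75% of all windows. These matches describe letters in a window only.

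Vegfa, the main angiogenic ligand, was at 849, 789, 843 and 744 CPM in BHLKO replicates 2, 3, 4 and 5, against 847, 876, 770.3 and 943 CPM in Alb-Cre replicates 1, 2, 4 and 5. The groups overlapped, with the highest library in Alb-Cre and the lowest in BHLKO. The means were 806 ± 49.6 CPM in BHLKO and 859 ± 71.7 CPM in Alb-Cre (SD, n = 4 each; log2 −0.09 ± 0.09; edgeR adjusted p = 0.661). Its 95% interval ran from 0.823-fold to 1.07-fold, the narrowest among the 10 genes. Counts over the whole gene do not separate the splice forms of Vegfa.

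Vegfb, a ligand of FLT1 linked to fat and heart muscle metabolism, was at 85.5, 90.3, 73.9 and 114 CPM in BHLKO libraries, against 104, 90.2, 109.9 and 92.1 CPM in Alb-Cre libraries. BHLKO replicate 5 was the highest of all 8 and BHLKO replicate 4 the lowest (log2 −0.12 ± 0.12; edgeR adjusted p = 0.667). Pgf, the other ligand that acts through FLT1 alone among the receptor kinases, was at 20.8, 12.6, 15.9 and 17.6 CPM in BHLKO libraries, against 13.3, 21, 12.1 and 19.4 CPM in Alb-Cre libraries. Its libraries interleaved (log2 0.03 ± 0.20; edgeR adjusted p = 0.964), and its 95% interval, 0.758-fold to 1.38-fold, was wide. Pgf starts 11.3 Mb from Hif1a on chromosome 12, and none of the other 9 genes shares a chromosome with Hif1a or Arntl.

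Vegfc, the other ligand of FLT4, was at 17.3, 19.9, 18.4 and 16.4 CPM in BHLKO libraries, against 13.1, 16.5, 15.4 and 18.9 CPM in Alb-Cre libraries. The groups overlapped through Alb-Cre replicates 2 and 5 (log2 0.17 ± 0.16, 95% interval 0.896-fold to 1.41-fold; edgeR adjusted p = 0.631). The 1.39-fold difference of Vegfd lies within that interval.

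Kdr, the main signalling receptor of VEGFA on blood endothelium, was at 349, 415, 376 and 349 CPM in BHLKO replicates 2, 3, 4 and 5, against 418, 469, 342 and 312 CPM in Alb-Cre replicates 1, 2, 4 and 5. The Alb-Cre libraries spread more widely and enclosed the BHLKO libraries. The means were 372 ± 31.4 CPM in BHLKO and 385 ± 71.5 CPM in Alb-Cre (SD, n = 4 each; log2 −0.05 ± 0.12, 95% interval 0.812-fold to 1.15-fold; edgeR adjusted p = 0.883).

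Flt1 was at 449, 399, 509 and 428 CPM in BHLKO replicates 2, 3, 4 and 5, against 338, 412, 326 and 389 CPM in Alb-Cre replicates 1, 2, 4 and 5. Only BHLKO replicate 3 fell below an Alb-Cre library, replicate 2. The means were 446 ± 46.5 CPM in BHLKO and 366 ± 41.0 CPM in Alb-Cre (SD, n = 4 each; log2 0.28 ± 0.10). The gene did not pass over all tested genes (edgeR adjusted p = 0.173, unadjusted p = 0.0135 from the same fit). Counts over the gene do not separate the membrane receptor from soluble FLT1, a shorter form that binds ligand without signalling.

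Flt4, the receptor of VEGFC and VEGFD, was at 81.5, 64.8, 74.9 and 81.8 CPM in BHLKO libraries, against 62.8, 82.2, 57.1 and 86.2 CPM in Alb-Cre libraries. The Alb-Cre libraries held both the highest and the lowest values (log2 0.07 ± 0.13; edgeR adjusted p = 0.831). The ligand Vegfd therefore passed the test and its receptor gene did not. Their ratio within a library was 3.52, 4.04, 4.39 and 3.13 in BHLKO, against 3.03, 2.47, 3.38 and 2.69 in Alb-Cre (log2 difference 0.38; exact two-sided permutation p = 0.0571, adjusted p = 0.229 over 8 pairs).

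The co-receptor Nrp1 was at 93.2, 131, 113 and 101 CPM in BHLKO libraries, against 98.2, 155, 103 and 106 CPM in Alb-Cre libraries. The groups overlapped, and Alb-Cre replicate 2 was the highest library (log2 −0.07 ± 0.15; edgeR adjusted p = 0.853). Of the 9785 bases of Nrp1 exons in GENCODE, 80 are shared with a microRNA gene on the same strand, and no other VEGF gene shares exon bases with a neighbour there. Nrp2, the neuropilin of lymphatic vessels and veins, was at 68.3, 74.9, 74.4 and 67.1 CPM in BHLKO libraries, against 63.0, 62.0, 63.2 and 53.7 CPM in Alb-Cre libraries. The groups did not overlap. The difference was 1.18-fold (log2 0.24 ± 0.10) and did not pass the test (edgeR adjusted p = 0.225). Group values did not overlap for 2 of the 10 genes, against 9.62% of all tested genes. Both, Vegfd and Nrp2, had BHLKO higher, as had 4.63% of all tested genes, while 0 of the 10 had BHLKO lower, as had 4.99%.

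**Figure D2:**
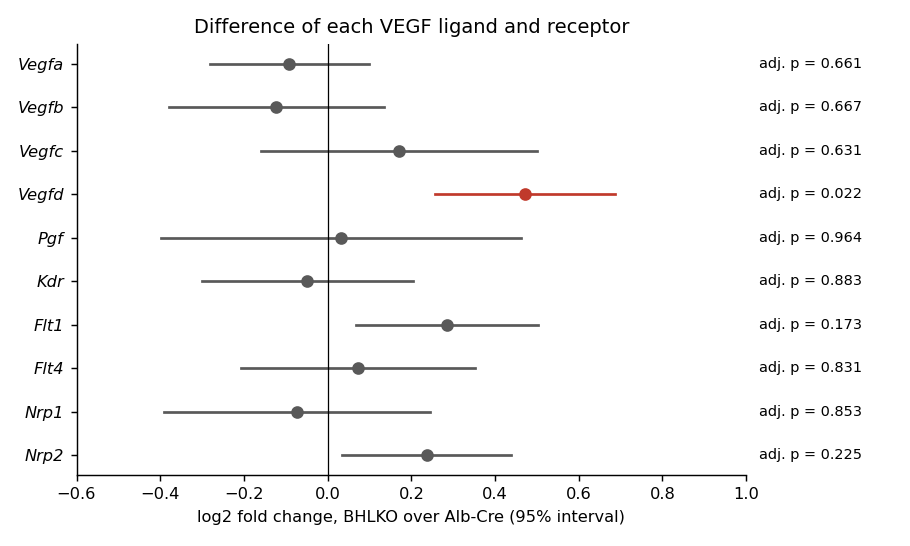
Log2 fold change of each VEGF gene, BHLKO over Alb-Cre, as points with 95% intervals from the edgeR fit to 4 libraries a group; the red point passed the test. The interval of Vegfd ran from 0.26 to 0.69, those of Flt1 and Nrp2 lay above 0 before adjustment for the number of genes tested, and the others included 0.

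Levels of different genes were compared per kilobase of merged exons. Among the ligands the order was Vegfa, Vegfd, Vegfb, Vegfc, Pgf in both groups. Vegfa had 188 ± 11.6 CPM per kb in BHLKO and 200.5 ± 16.7 in Alb-Cre, Vegfd 118 ± 13.8 and 84.9 ± 7.95, and Vegfb 56.7 ± 10.5 and 61.7 ± 5.89 (SD, n = 4 each). These 3 did not overlap with one another in either group. Vegfc (7.35 ± 0.611 CPM per kb in BHLKO, 6.53 ± 0.991 in Alb-Cre) and Pgf (5.75 ± 1.18 and 5.66 ± 1.51) were far lower and overlapped in both groups. As a share of the summed ligand level per kb, Vegfa made up 47.7% to 51.5% in BHLKO libraries and 53.1% to 57.0% in Alb-Cre libraries, and Vegfd 29.2% to 34.8% and 22.5% to 24.8%. Shares of one sum are not independent, and these were not tested.

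Among the receptors the order was Kdr, Flt1, Nrp1, Flt4, Nrp2. Kdr had 41.2 ± 3.47 CPM per kb in BHLKO and 42.6 ± 7.91 in Alb-Cre, and Flt1 33.0 ± 3.44 and 27.1 ± 3.04; the libraries of these genes did not overlap within a group. Nrp1 (11.2 ± 1.71 CPM per kb in BHLKO, 11.8 ± 2.71 in Alb-Cre) and Flt4 (9.2 ± 0.967 and 8.76 ± 1.74) overlapped in both groups. Nrp2, at 6.01 ± 0.343 CPM per kb in BHLKO and 5.11 ± 0.383 in Alb-Cre, was below Flt4 in every library of each group. The table lists no isoforms, and a gene with a shorter transcript in lung than the merged exons would be set too low on this scale.

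**Figure D3:**
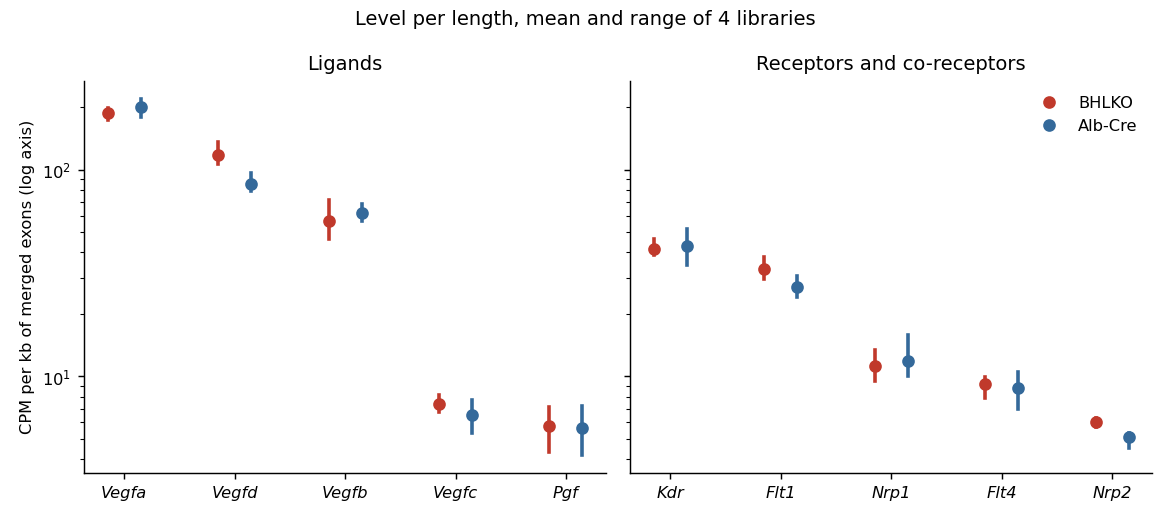
Level of each VEGF gene in CPM per kb of merged exons on a log axis, BHLKO left of Alb-Cre; points are means and bars the range of 4 libraries. Vegfa, Vegfd and Vegfb stood well above Vegfc and Pgf, and Kdr and Flt1 above the other receptors, in both groups.

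Ratios within a library do not depend on how libraries are scaled, and 8 pairs were compared by exact two-sided permutation tests over the 70 orderings of 4 against 4, whose smallest p is 0.0286. Vegfa to Flt1, a ligand to the receptor that limits it, was 1.89, 1.98, 1.66 and 1.74 in BHLKO libraries, against 2.5, 2.13, 2.37 and 2.43 in Alb-Cre libraries. Every BHLKO library was below every Alb-Cre library (log2 difference −0.38; exact p = 0.0286), and the adjusted p over the 8 pairs was 0.229. Kdr to Flt1, the balance between both blood vessel receptors, was 0.777, 1.04, 0.740 and 0.815 in BHLKO, against 1.24, 1.14, 1.05 and 0.803 in Alb-Cre (log2 difference −0.32; exact p = 0.114, adjusted p = 0.286). Nrp1 to Nrp2 differed by −0.30 (exact p = 0.143, adjusted p = 0.286). Vegfa to Kdr, Pgf to Vegfa, Vegfb to Vegfa and Vegfc to Flt4 differed by −0.06, 0.13, −0.05 and 0.09, with exact permutation p from 0.543 to 0.829. No pair passed after adjustment, but a single pair with the smallest possible p has an adjusted p of 0.229 over 8 pairs, so a full separation of 1 pair could not have passed.

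Kdr, Flt1 and Flt4 are made mainly by endothelium, and the 16 pan-endothelial markers, among them Pecam1, Cdh5, Tek and Eng, were all measured. Of these 0 were called, and their median log2 fold change was 0.15. Eng, a co-receptor of the TGF-beta family, averaged 1158 ± 254 CPM in BHLKO and 802 ± 116 CPM in Alb-Cre (edgeR adjusted p = 0.105). On leaving out a library, 4 markers were called without BHLKO replicate 3, 3 without Alb-Cre replicate 5 and 0 without any of the others. Eng then had adjusted p of 0.00575 and 0.031 in those fits, and Sox17, an endothelial transcription factor, 0.0305 and 0.00785. Cdh5, the junction cadherin that binds KDR, averaged 607 ± 33.0 CPM in BHLKO and 611 ± 27.4 CPM in Alb-Cre, and Sox17 84.0 ± 11.6 and 117 ± 17.4 CPM (SD, n = 4 each; edgeR adjusted p = 0.977 and 0.0507). The markers summed to 10203, 7888, 10155 and 9513 CPM in BHLKO libraries, against 7927, 8578, 7290.4 and 9206 CPM in Alb-Cre libraries, and the groups overlapped (exact two-sided permutation p = 0.143 on the log2 sum). Ramp2 was the largest part of the sum, at a mean of 2455 CPM in BHLKO and 2218 CPM in Alb-Cre. Relative to that sum, Flt1 differed by log2 0.09 (exact permutation p = 0.2) in place of 0.28 in CPM. Kdr, Flt4, Nrp1 and Nrp2 differed by −0.23, −0.11, −0.26 and 0.05 relative to the sum (exact permutation p from 0.314 to 0.8), and the adjusted p over the 5 receptors was 0.5 to 0.8. The Flt1 value depended on the reference. Relative to the mean log2 CPM of the markers, which weighs each alike, Flt1 differed by 0.19 (adjusted exact permutation p = 0.143). That is the smallest adjusted p a single receptor can reach over the 5 tested. A full separation of 1 receptor could therefore not have passed.

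The endothelial subtypes were described in the same way. Of 9 markers of aerocytes, the gas-exchange capillary cells that depend on VEGFA, 0 were called (median −0.08; Tbx2 at −0.24 ± 0.10 and Rprml at −0.37 ± 0.22, adjusted p = 0.223 and 0.443; summed level 1999.9 to 2302 CPM in BHLKO and 2069 to 2416 CPM in Alb-Cre). Of 10 markers of general capillary cells, 1 rose and 9 did not pass (median 0.04). Plvap, the diaphragm protein of fenestrae and caveolae, rose 1.6-fold (log2 0.68 ± 0.10, edgeR adjusted p = 0.00253). The 10 summed to 3210 to 3576 CPM in BHLKO and 2396 to 2984 CPM in Alb-Cre. These sums did not overlap, and Plvap was their largest part. Of 8 lymphatic markers tested, 2 rose, 1 fell and 5 did not pass (median −0.10). Lyve1, the hyaluronan receptor of lymphatic vessels, rose 2.02-fold, to 475 ± 59.6 CPM in BHLKO against 235 ± 73.1 CPM in Alb-Cre (edgeR adjusted p = 0.0298), and its call was lost without BHLKO replicate 2, 4 or 5, or without Alb-Cre replicate 1, 2 or 4 (adjusted p up to 0.103). Pdpn, which alveolar type 1 cells also make, rose 1.39-fold, with the call lost without BHLKO replicate 2, 4 or 5, or without Alb-Cre replicate 1 or 2 (adjusted p up to 0.096). Thy1, which T cells and fibroblasts also make, fell by 0.87 on the log2 scale. Chosen after their values were seen, Mmrn1 and Reln, which are more restricted to lymphatic endothelium, had adjusted p of 0.713 and 0.983, and Prox1, the factor that specifies it, had 0 to 10 counts per library and was not tested. The 8 markers summed to 545 to 690.4 CPM in BHLKO and 337 to 492 CPM in Alb-Cre, with no overlap, and Lyve1 made up most of the sum. Flt4 and Nrp2 did not pass the test beside them.

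Fibroblast markers were described beside Vegfd. Of 10 tested fibroblast markers, 2 rose, 0 fell and 8 did not pass (median log2 fold change 0.32), among them Dcn, a collagen-binding proteoglycan, at −0.23 (adjusted p = 0.62). Pdgfra, the platelet-derived growth factor receptor of alveolar fibroblasts, was at 165, 142, 169 and 162 CPM in BHLKO libraries, against 112, 128, 98.1 and 121 CPM in Alb-Cre libraries. It rose 1.39-fold (log2 0.48 ± 0.10; edgeR adjusted p = 0.0178). Npnt, an extracellular matrix ligand of integrins that alveolar type 1 cells also make, rose 1.39-fold as well (log2 0.47 ± 0.11; edgeR adjusted p = 0.0322). Pdgfra lost its call without BHLKO replicate 2, 4 or 5, or without Alb-Cre replicate 1 or 4 (adjusted p up to 0.069), and Npnt without BHLKO replicate 2, 3 or 4, or without Alb-Cre replicate 1, 4 or 5 (adjusted p up to 0.103). Tcf21, a mesenchymal transcription factor, was at 298 ± 48.9 CPM in BHLKO and 313 ± 64.5 CPM in Alb-Cre (adjusted p = 0.855).

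The 10 fibroblast markers summed to 2131 to 2448 CPM in BHLKO and 1852 to 1991 CPM in Alb-Cre, with no overlap, and none was at 0. Npnt made up 31.2% to 41.6% of the sum in BHLKO and 26.0% to 34.9% in Alb-Cre. Without Npnt the other 9 summed to 1244, 1593, 1559.9 and 1577 CPM in BHLKO replicates 2, 3, 4 and 5, against 1260.3, 1296, 1424 and 1302 CPM in Alb-Cre replicates 1, 2, 4 and 5. These sums overlapped, with BHLKO replicate 2 the lowest of all 8 libraries. Relative to the sum of all 10, a comparison added after the data were seen, Vegfd had ratios of 0.135, 0.107, 0.136 and 0.112 in BHLKO libraries, against 0.1, 0.102, 0.1 and 0.125 in Alb-Cre libraries. The groups overlapped (log2 difference 0.19; exact two-sided permutation p = 0.171, adjusted p = 0.343 over 2 such ratios). With Npnt left out of the sum the log2 difference was 0.30 (adjusted exact permutation p = 0.286). The other ratio added after the data were seen was that to Pdgfra alone, the called marker with the smallest p. It was 1.74, 1.84, 1.95 and 1.58 in BHLKO libraries, against 1.71, 1.58, 1.97 and 1.92 in Alb-Cre libraries, a log2 difference of −0.01 (exact permutation p = 0.914). Vegfd and Pdgfra had log2 fold changes of 0.47 and 0.48. A small ratio difference was thus fixed by the choice of Pdgfra, and its p-value tests nothing further. The part of fibroblast content in the higher Vegfd was not tested.

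**Figure D4:**
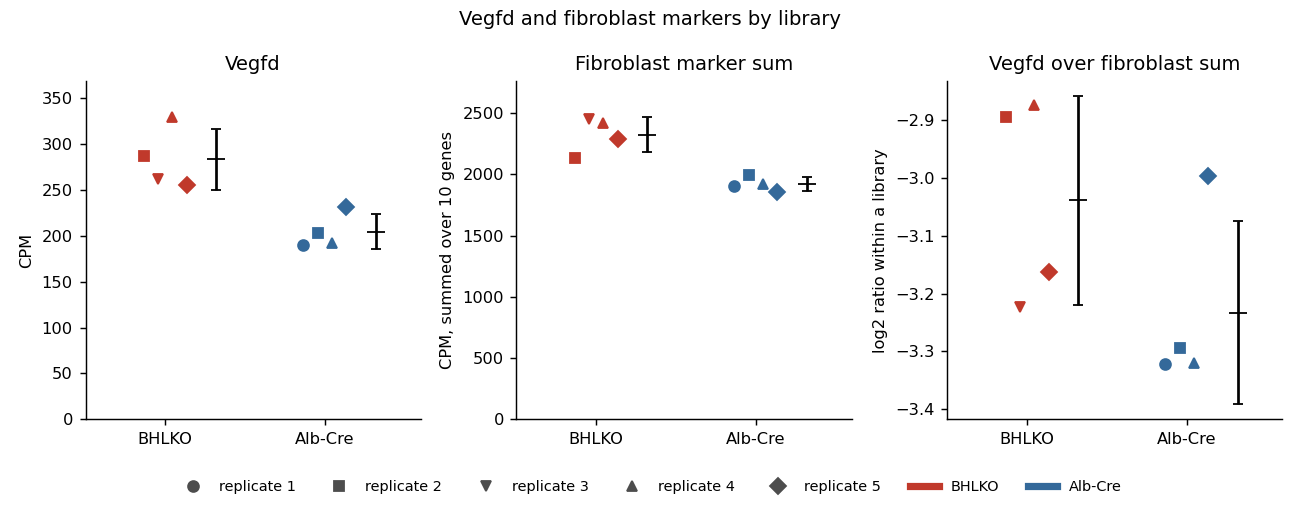
Vegfd in CPM (left), the summed CPM of 10 fibroblast markers (middle) and the log2 ratio of both (right) in each library, BHLKO left of Alb-Cre, with replicate numbers as symbols and the mean ± SD of 4 libraries in black. The groups did not overlap for Vegfd or the marker sum, of which Npnt made up 26.0% to 41.6% in a library and without which the sums overlapped, and they overlapped for the ratio, where Alb-Cre replicate 5 lay above the other Alb-Cre libraries.

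VEGFC and VEGFD need cutting before they act fully on FLT4. Of 7 tested genes of this processing step, 0 were called (median 0.13). Ccbe1, the cofactor of VEGFC cleavage, averaged 9.73 ± 1.74 CPM in BHLKO and 6.64 ± 3.05 CPM in Alb-Cre (edgeR adjusted p = 0.326), and the protease gene Adamts2 16.0 ± 2.01 and 12.2 ± 2.76 CPM (adjusted p = 0.309). Of 12 semaphorin and plexin genes that share the neuropilins, 0 were called (median 0.12). Sema3e, the repulsive ligand of PLXND1, averaged 8.76 ± 0.814 CPM in BHLKO and 5.57 ± 0.928 CPM in Alb-Cre (edgeR adjusted p = 0.129), and Sema3b 83.4 ± 8.23 and 68.3 ± 6.68 CPM (adjusted p = 0.173). Their group values did not overlap.

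Signalling downstream of the receptors was described by 34 tested genes, of which 0 rose, 1 fell and 33 did not pass (median −0.04). Prkcb, a protein kinase C of the phospholipase C branch that lymphocytes also use, was at 5.22, 7.66, 5.25 and 5.36 CPM in BHLKO libraries, against 14.9, 14.7, 15.7 and 11.6 CPM in Alb-Cre libraries. It fell by 1.27 ± 0.20 on the log2 scale (edgeR adjusted p = 0.00304), with no overlap. Nos3, the endothelial nitric oxide synthase activated through KDR, was at 38.5 ± 3.17 CPM in BHLKO and 37.0 ± 3.38 CPM in Alb-Cre (adjusted p = 0.85). Hspb1, a small heat shock protein phosphorylated after VEGFA, averaged 794 ± 101 and 334 ± 134 CPM (adjusted p = 0.07) and is named here after its values were seen, as are Nos3, Tcf21, Cdh5 and the untested Plcg1. Plcg1, the phospholipase recruited by KDR, had 0 to 6 counts per library and was not tested; Pgk1, a glycolytic enzyme used by every cell, had 3 to 17, so a low count in this table need not mean a low transcript level.

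Of 20 tested receptor co-factors and brakes, 2 rose, 0 fell and 18 did not pass (median 0.11). Itgb3, the beta 3 integrin that pairs with KDR and is also a platelet integrin, was at 179.6, 111, 118 and 134 CPM in BHLKO libraries, against 79.7, 83.4, 75.5 and 78.4 CPM in Alb-Cre libraries. It rose 1.71-fold (log2 0.78 ± 0.13; edgeR adjusted p = 0.00472), with BHLKO replicate 2 the highest. Thbs1, thrombospondin 1, an inhibitor of angiogenesis also stored in platelets, rose 1.89-fold (log2 0.92 ± 0.20; edgeR adjusted p = 0.0494), and its call was lost without any single library other than Alb-Cre replicate 5 (adjusted p up to 0.157). In the list of red blood cell and platelet markers 1 of 6 tested genes, Alas2, the heme synthesis enzyme of red cells, rose, and all 6 lay above 0 (median 0.85; summed level 1089.8 to 1447 CPM in BHLKO and 604 to 808 CPM in Alb-Cre, none at 0). The part of blood cells in Itgb3 and Thbs1 was not tested.

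Genes that VEGFA induces in cultured human endothelium showed 0 rises and 2 falls among 20 tested, with 18 that did not pass (median 0.23). Of the 20, 15 lay above 0, where the median of all tested genes was −0.002. An unadjusted edgeR p under 0.05 was found for 7, among them the 2 that fell, against 16.1% of all tested genes. The list includes Flt1 and Pgf, so it is not separate from the VEGF genes. Cxcr4, the receptor of the chemokine CXCL12 in tip cells and leukocytes, was at 41.4, 41.9, 33.9 and 31.4 CPM in BHLKO libraries, against 81.0, 78.2, 79.0 and 91.9 CPM in Alb-Cre libraries. It fell by 1.15 ± 0.11 on the log2 scale (edgeR adjusted p = 4.15e-05), with no overlap. Ets1, a transcription factor of endothelium and lymphocytes, fell by 0.46 ± 0.09 (edgeR adjusted p = 0.0136), and its call was lost without BHLKO replicate 2, or without Alb-Cre replicate 4 (adjusted p up to 0.0558). All 10 lymphocyte markers lay below 0 (4 fell, 0 rose; median −1.5), and they summed to 37.8 to 65.7 CPM in BHLKO and 85.4 to 208 CPM in Alb-Cre, with no overlap and none at 0. Those that fell were the T cell genes Cd8a, Cd4 and Cd3d and the B cell gene Cd22, at −2.40, −1.5, −1.23 and −1.5 on the log2 scale; Cd4 and Cd3d lost their calls without BHLKO replicate 4, or without Alb-Cre replicate 1 or 4, and Cd22 without BHLKO replicate 2, 3 or 4, or without Alb-Cre replicate 1, 2 or 4 (adjusted p up to 0.128). Their part in the lower Cxcr4, Ets1 and Prkcb was not tested.

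Of 19 tested targets of hypoxia-inducible factors, a list that does not hold Vegfa, 1 rose, 0 fell and 18 did not pass (median 0.05). Vegfa, counted with the VEGF genes, did not pass either (edgeR adjusted p = 0.661). P4ha1, a collagen prolyl hydroxylase, rose 2.44-fold, to 34.8 ± 4.07 CPM in BHLKO against 14.2 ± 6.11 CPM in Alb-Cre (edgeR adjusted p = 0.0125), and lost its call without Alb-Cre replicate 2 (adjusted p = 0.054). Chosen after their values were seen, the glucose transporter Slc2a1 and the lactate dehydrogenase Ldha, both classical targets, had log2 fold changes of 0.03 ± 0.13 and 0.06 ± 0.12 (adjusted p = 0.946 and 0.864).

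The remaining lists held markers of epithelium, mural cells, heart, fat and myeloid cells. Of 12 alveolar type 1 markers, a source of VEGFA, 2 rose (Rtkn2 and Pdpn), Akap5 fell and 9 did not pass (median 0.04; summed level 9927 to 10195 CPM in BHLKO and 8805 to 10395 CPM in Alb-Cre). Of 11 alveolar type 2 markers, the collectin gene Sftpd rose and the lung transcription factor gene Nkx2-1 fell (median 0.08; 42809 to 47607 CPM in BHLKO and 39695 to 48485 CPM in Alb-Cre). Akap5 lost its call without BHLKO replicate 2, 3 or 5, or without Alb-Cre replicate 1, 2 or 4 (adjusted p up to 0.114), and Sftpd without BHLKO replicate 2, or without Alb-Cre replicate 4 (adjusted p up to 0.0763). Rtkn2 averaged 22.1 ± 5.51 CPM in BHLKO and 3.64 ± 1.39 CPM in Alb-Cre, and Nkx2-1 60.6 ± 6.24 and 198 ± 10.4 CPM (SD, n = 4 each; edgeR adjusted p = 0.000187 and 3.91e-08). Among 11 pericyte and smooth muscle markers 0 were called (median 0.12), with Higd1b at −0.30 ± 0.09 and Notch3, a receptor of mural cells, at −0.29 ± 0.10 (adjusted p = 0.0849 and 0.172). Among 12 cardiac muscle markers 0 were called (median 0.83), with the calcium channel gene Ryr2 at 1.02 ± 0.30 and the troponin gene Tnnc1 at 0.77 ± 0.25 (adjusted p = 0.111 and 0.176). All 12 lay above 0, and they summed to 1897 to 5739.7 CPM in BHLKO and 1375 to 2922 CPM in Alb-Cre. Without BHLKO replicate 3, the BHLKO library with the lowest sum, 3 were called, Ryr2 and Tnnc1 among them (adjusted p = 0.0123 and 0.00179), and 0 without any other library. Among 9 adipocyte markers 0 were called (median −1.06), with the lipid droplet gene Plin1 at −1.20 ± 0.82 and the hormone gene Retn at −1.33 ± 0.90 (adjusted p = 0.542 and 0.544). Their sum was 3345 and 2314 CPM in Alb-Cre replicates 1 and 4 and 317 and 411 CPM in Alb-Cre replicates 2 and 5, with 632 to 1477 CPM in BHLKO. Without Alb-Cre replicate 1, Plin1 was at −0.64 and Retn at −0.36. Of 11 myeloid markers, the fractalkine receptor gene Cx3cr1 fell and 10 did not pass (median −0.19).

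For Vegfa, Kdr and Flt1 the genes whose log2 CPM followed them most closely over the 8 libraries were searched among the 8798 genes whose mean level was 10 CPM or more. The highest Pearson correlations with Vegfa were those of Cep250 (0.97), Gm14207 (0.94) and Cyp4f18 (0.93). For Kdr they were Hdgf (0.98), Rbm8a (0.95) and Zbtb5 (0.95), and for Flt1 Snx19 (0.99), Scarb2 (0.97) and Bst2 (0.96). None of these 9 genes was called between the groups. These are the highest values of a search over many genes and few libraries that share their scaling and depth, and they are given as a description. No other VEGF gene was among the nearest 3 of any of them.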

How the data were processed

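RNA from whole lung was sequenced by the authors in 8 libraries, with 4 a group. The build mm10 and the tools cutadapt, HTSeq, DESeq2 and STAR 2.5.2b are named per the submitters' processing notes, with no role given. The counting annotation and strand setting are not stated in the sources at hand. The deposited table holds read counts. Per the file headers it also holds a normalized signal, which equals the authors' counts over recomputed DESeq2 size factors. All 16 columns were matched to samples, whose replicate numbers are those of the descriptions.

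Counts were tested in edgeR 4.0.16 (R 4.3.3) with TMM scaling, filterByExpr and the robust quasi-likelihood test. Adjusted p-values are Benjamini-Hochberg values over all 13517 tested genes, and 95% intervals use the t quantile of the fit. The scripts were tested on simulated data. Ratios were compared by exact permutation in scipy 1.17.1. Merged exon lengths and positions are from GENCODE M21. Reads carry no molecular identifiers. Alternatives were other scalings, filters and tests (DESeq2 1.42.0, limma 3.58.1), a replicate block and leaving out each library.

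The members and the 19 other gene lists were chosen with earlier results of these data known. Named are all members and the targeted genes. From each list, up to 4 called genes are named, or else the 2 with the smallest p. The 3 genes most correlated with each of Vegfa, Kdr and Flt1 are named too. Most further genes are said to be chosen after their values were seen. Dcn, Ramp2, Pgk1, Pecam1, Tek and the Y-linked genes were also named outside these rules.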

Additional observations from a re-analysis of the deposited data

Results flagged for a closer look

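In groups of 4, a library was singled out where its gap to the nearest other library exceeded 0.829 of the group's range, which chance gives in about 1 of 20 groups; 50 groups of values were looked at and 3 were singled out. Nrp1 was at 155 CPM in Alb-Cre replicate 2, above 98.2 to 106 CPM in the other Alb-Cre libraries. Nrp2 was at 53.7 CPM in Alb-Cre replicate 5, below 62.0 to 63.2 CPM in the others. The log2 ratio of Vegfd to the fibroblast marker sum was −3.00 in Alb-Cre replicate 5, above −3.32 to −3.29 in the others. Without that library the log2 difference of this ratio was 0.27 and every BHLKO library (−3.22 to −2.87) lay above the other Alb-Cre libraries. Its exact permutation p was then the smallest that 3 against 4 libraries allow, 0.0571 (adjusted p = 0.114), so no such separation could have passed.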

How the results depend on the processing

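The log2 fold change of Vegfd stayed between 0.46 and 0.47 under the other scalings, filters and tests (adjusted p 0.0012 to 0.0367), and ran from 0.39 to 0.54 on leaving out 1 library (adjusted p 0.0078 to 0.0865). With a replicate block it was 0.47 with adjusted p = 0.142, and 0 members were called; leaving out 1 library gave 0 to 1. Replicate numbers 2, 4 and 5 are shared between groups, so Alb-Cre replicate 1 and BHLKO replicate 3 add nothing to the blocked contrast. Deviations of same-numbered libraries from their group means correlated at −0.00577 to 0.0383. Those of differently numbered libraries correlated at −0.129 to 0.0926. So few correlations cannot show whether the numbers mark pairs. Genes called numbered 708 with DESeq2, 160 with the replicate block and 131 to 520 on leaving out 1 library, against 306; list genes called numbered 42 with DESeq2 and 12 to 36 on leaving out 1 library, against 22. Without Alb-Cre replicate 5, 6 VEGFA-induced genes, 8 lymphocyte markers and 3 hypoxia-inducible factor targets were called, against 2, 4 and 1. The cause was not tested.

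No scaling reversed a member. Leaving out 1 library gave log2 ranges that crossed 0 for Flt4 (−0.024 to 0.18), Kdr (−0.14 to 0.059), Nrp1 (−0.17 to 0.096), Pgf (−0.091 to 0.16), Arntl (−0.026 to 0.38) and Hif1a (−0.013 to 0.15), and for the log2 ratios of Nrp2 to the endothelial sum (−0.065 to 0.12), Vegfa to Kdr (−0.15 to 0.085), Vegfb to Vegfa (−0.20 to 0.070), Vegfc to Flt4 (−0.029 to 0.19) and Vegfd to Pdgfra (−0.070 to 0.045). Plin1 was at 0.059 under the replicate block. Depth limits Vegfc and Pgf most, with at least 114 and 141 counts in each library.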
